A study of Mus musculus with 9 samples.

Results

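The genes described here encode the glycosyltransferases and sulfotransferases that build and cap the sugar chains of T cell surface proteins, together with Selplg, the gene of PSGL-1, the main scaffold on which T cells carry ligands for selectins. Members were the protein-coding genes of the count table whose mouse symbols begin with Fut and a digit, St3gal, St6gal, St8sia, B3gnt, B4galt, Gcnt, Mgat, Galnt or Chst, plus Selplg, with at least 10 counts summed over the 9 libraries. Of 93 such genes 68 were members, among 18141 genes of the table with that many counts. The other 25, of which 16 had no count at all, included Fut1, Fut9, Chst4 and St6gal2. Galnt2 was also left out, with 9 counts in all. It shares exons on its strand with the annotated gene Gm20388, which had no count, and the treatment of reads in shared exons is not stated.

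RNA was sequenced from cultured mouse regulatory T cells (Tregs), a CD4 lineage marked by Foxp3 that restrains immune responses. Per the labels, all mice were C57BL/6 and carried Foxp3-Cre-GFP and the reporter R26-LSL-RFP. The 4 Ezh2-deficient libraries were Ezh2-fl/fl. Of the 5 WT libraries, replicate 1 was Ezh2-fl/+ and replicates 2 to 5 were Ezh2-+/+. Sorted Tregs were activated on anti-CD3/anti-CD28 beads and grown in 2000 U/ml IL-2 until day 4; since Cre is driven by Foxp3, the deletion is limited to cells that express or have expressed it.

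Selectins are lectins of the vessel wall, platelets and leukocytes that slow circulating cells by binding fucosylated and sialylated sugars. On T cells the tetrasaccharide they bind, sialyl Lewis X, is made stepwise: a Galnt enzyme starts an O-linked chain, Gcnt1 branches it, B4galt and B3gnt enzymes extend it, an St3gal enzyme adds sialic acid and Fut7 adds the last fucose. The same families also build N-linked chains, where Mgat enzymes set the number of branches, Fut8 fucosylates the core, and St6gal1 or St8sia enzymes add other sialic acids, while Chst enzymes add sulfate. Ezh2 is the methyltransferase of Polycomb repressive complex 2, which marks silent genes, often at promoters rich in CG dinucleotides.

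Total counts ran from 32469450 to 62201921 per library. Levels are given in CPM, the counts relative to the size of the library. Ezh2 itself was at 153, 167, 164 and 159 CPM in Ezh2-deficient replicates 1 to 4 and at 268, 332, 288, 234 and 360 CPM in WT replicates 1 to 5. The libraries held Treg transcripts throughout. The summed CPM of Foxp3, Il2ra, Ctla4 and Ikzf2 was at 8822 to 10023 in Ezh2-deficient against 7987 to 8800 in WT libraries, without overlap. Foxp3 itself was at 1647 to 1968 against 1293 to 1542 CPM and was higher by the edgeR test described further on (adjusted p = 0.0313). Il2ra, which made up most of the sum, Ctla4 and Ikzf2 did not pass (adjusted p = 0.361, 0.359 and 0.555). Both groups also contained libraries of 2 kinds by a score over 23 hypoxia response genes, at 6.06 to 6.39 (mean log2 CPM) in Ezh2-deficient replicates 1 and 4 and WT replicates 1, 2 and 4, and at 4.80 to 4.87 in the other 4. The CD8 T cell transcript Cd8a was at 28.3 to 97.6 CPM in those 5 libraries, at 41.1 CPM in WT replicate 5 and at 0.361 to 1.98 CPM in the other 3. Summed CPM of marker lists is given next for Ezh2-deficient against WT libraries. The 2 CD8 T cell markers summed to 14.2 to 130 against 16.2 to 147 CPM. The 4 B cell markers summed to 0.617 to 6.52 against 5.21 to 8.29 CPM, and 1 of them, Cd79a, was lower (log2 difference, the log2 fold change of Ezh2-deficient over WT, -1.38, adjusted p = 0.00716 in the edgeR test described further on). Sums of the 5 myeloid markers did not overlap between the groups, at 19.5 to 27.4 against 11.2 to 18.5 CPM. Most of that sum was Itgam, which was higher, at 16.6 to 24.5 against 8.52 to 16.3 CPM (0.80, adjusted p = 0.00817), while Lyz2 and Csf1r were at or under 0.130 CPM in every library. Cd68 did not pass (0.03, adjusted p = 0.934). Cd14 went the other way, at 0 to 0.0282 against 0.101 to 0.476 CPM, and was too low for the test. The 3 NK cell markers summed to 0.0903 to 9.36 against 2.72 to 5.69 CPM, with Ncr1 at 0. The 3 endothelial markers summed to 196 to 245 against 162 to 218 CPM, nearly all of it Pecam1, with Cdh5 and Kdr at or under 0.395 CPM. The 3 epithelial markers summed to 13.5 to 20.7 against 11.1 to 27.3 CPM, with Krt8 at 0 and Krt18 higher (1.13, adjusted p = 0.0257). The part of these cell types in the results was not tested, and in such bulk samples fewer cells of a type cannot be told apart from less RNA per cell.

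The windows before 4 of the transcription starts are shown because these genes had large or clear changes and differ in CG content. Each is the window of 250 bases before a RefSeq start (GRCm38.p6) that is richest in CG among those with no annotated UTR base, written 5′ to 3′ on the gene's strand, with each CG dinucleotide in capitals.
Fut7 (chr2:25422992-25423241, plus strand): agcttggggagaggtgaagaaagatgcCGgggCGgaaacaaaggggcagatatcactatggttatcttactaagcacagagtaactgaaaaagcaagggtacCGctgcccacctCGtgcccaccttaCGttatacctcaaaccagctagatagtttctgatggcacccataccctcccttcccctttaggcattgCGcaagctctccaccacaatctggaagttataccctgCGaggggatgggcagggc
Gcnt2 (chr13:40886508-40886757, plus strand): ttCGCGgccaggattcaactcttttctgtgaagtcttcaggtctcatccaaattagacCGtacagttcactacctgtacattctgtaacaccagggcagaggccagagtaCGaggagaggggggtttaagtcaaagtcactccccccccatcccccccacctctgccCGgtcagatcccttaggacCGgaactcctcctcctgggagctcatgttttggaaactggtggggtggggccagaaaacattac
Fut8 (chr12:77238489-77238738, plus strand): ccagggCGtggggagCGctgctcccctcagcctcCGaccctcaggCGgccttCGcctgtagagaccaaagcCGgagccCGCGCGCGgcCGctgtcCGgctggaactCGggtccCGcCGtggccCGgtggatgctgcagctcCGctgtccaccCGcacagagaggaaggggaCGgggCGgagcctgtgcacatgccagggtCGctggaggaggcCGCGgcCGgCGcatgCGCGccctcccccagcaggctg
Mgat4a (chr1:37541017-37541266, minus strand): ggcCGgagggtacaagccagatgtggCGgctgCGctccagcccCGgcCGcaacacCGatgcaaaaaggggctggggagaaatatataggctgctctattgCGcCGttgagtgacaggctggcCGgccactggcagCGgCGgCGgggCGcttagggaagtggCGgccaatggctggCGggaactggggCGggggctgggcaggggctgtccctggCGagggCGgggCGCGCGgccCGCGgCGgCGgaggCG

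Fut7, which fell without Ezh2, has 7 CG dinucleotides in its window, and Gcnt2, which rose, has 6. The windows of Fut8 and Mgat4a, which also rose, hold 27 and 26. Another window of Gcnt2, not printed, holds 11. For Fut7 and Mgat4a the bases after the start were found in an annotated transcript of the gene. For Fut8 and Gcnt2 they were not found. CG reads the same on both strands, so 1 search covers both. RefSeq windows were found for 52 of the 68 members. In the richest window of each gene, 35 of the 52 (67.3%) held at least 15 CG dinucleotides, against 29.6% of all 27025 genes with a window. The sets are unlike: members are protein-coding genes with at least 10 counts, and the 27025 were not filtered by gene type or counts. Among members that passed the test described next, 9 of 12 that rose and 4 of 8 that fell held at least 15. Of members that did not pass, 19 of 27 did. St8sia6, whose only window lies within the annotated gene and was not printed, held 30.

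Which of these genes differ between Tregs with and without Ezh2 was asked with edgeR's quasi-likelihood test over all 13685 genes that passed its filter on low counts, with Benjamini-Hochberg adjusted p values at a threshold of 0.05. Of the 68 members 56 passed the filter, and 14 rose and 8 fell. That is 39.3% of the tested members, where 21.9% of all tested genes passed, 13.1% higher and 8.8% lower. The median log2 difference of the 56 was -0.02. For 20 of the 56 members the ranges of the groups were separate, a larger share than the 21.2% of all tested genes. Among members that passed, Gcnt2, Fut8 and St8sia6 rose and Fut7 and B3gnt2 fell by 2-fold or more. Without Ezh2-deficient replicate 3 the counts were 9 and 5, and within the 4 libraries of low hypoxia score, 2 against 2, they were 5 and 2.

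**Figure D1:**
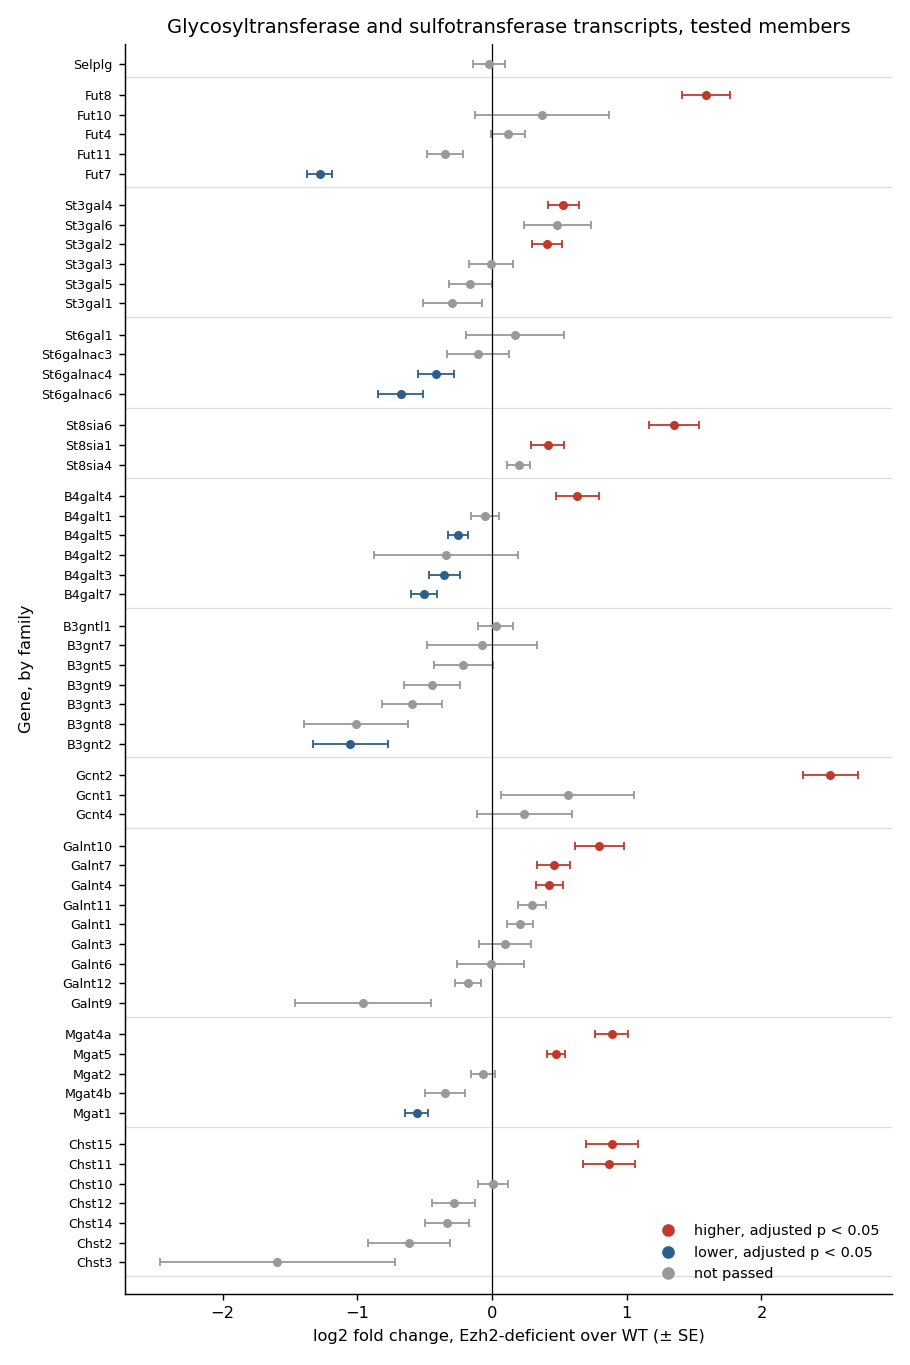
Log2 fold change (Ezh2-deficient over WT, n = 4 and 5) of the 56 tested members, grouped by family; points are edgeR estimates, bars their SE, red and blue mark members higher and lower at an adjusted p of 0.05. Gcnt2 stands farthest to the right at 2.51, and Fut7, at -1.28 with an SE of 0.10, is the lowest of the members that passed.

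Fut7 encodes the fucosyltransferase that completes sialyl Lewis X on T cells. It was at 20.8, 25.7, 24.1 and 25.2 CPM in Ezh2-deficient replicates 1 to 4 and at 51.1, 62.2, 60.6, 61.9 and 55.5 CPM in WT replicates 1 to 5. The highest Ezh2-deficient library lay well below the lowest WT library, which was the one with 1 floxed allele. The means were 24.0 ± 2.19 (SD, n = 4) and 58.3 ± 4.82 CPM (SD, n = 5), 2.43-fold apart (log2 difference -1.28, SE 0.10, adjusted p = 9.9e-06). Fut7 (ENSMUSG00000036587) lies on GRCm38 chromosome 2, 25423267 to 25426374, and overlaps no exon of another gene. It passed in all 20 alternative analyses, at -1.35 to -1.24, among them the fits within the libraries of high and of low hypoxia score.

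Of 15 genes listed for this pathway, 13 were tested, of which St3gal4 rose, Fut7, B4galt5 and B3gnt2 fell and 9 did not pass. Thus 30.8% of them passed, where 21.9% of all tested genes did. Selplg, the scaffold, was at 648, 861, 746 and 596 CPM in the Ezh2-deficient libraries. WT libraries were at 660, 643, 811, 803 and 702 CPM. The ranges overlapped fully, with a log2 difference of -0.02 (SE 0.12, adjusted p = 0.919). Fut4, the other fucosyltransferase of T cells that can act on these chains, was at 28.8 ± 3.09 against 26.5 ± 4.11 CPM (log2 difference 0.12, SE 0.12, adjusted p = 0.516). Fut7 stood at 24.7 RPKM (CPM per kilobase of exon) and Fut4 at 6.51 RPKM in WT cells, and in Ezh2-deficient cells at 10.2 and 7.08 RPKM.

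Sialic acid is added before the fucose, and St3gal4 is a main enzyme of this step in leukocytes. St3gal4 was at 156, 161, 158 and 166 CPM in Ezh2-deficient libraries against 132, 122, 86.3, 95.1 and 121 CPM in WT libraries. Every Ezh2-deficient library was above every WT library, and the WT libraries were the more spread. It rose 1.44-fold (log2 difference 0.53, SE 0.11, adjusted p = 0.00735). St3gal6, which can act at the same step, was far lower, at 3.46 ± 1.01 against 2.47 ± 0.475 CPM, and did not pass (adjusted p = 0.179). St3gal3 was at 7.61 ± 1.12 against 7.66 ± 1.20 CPM (adjusted p = 0.985).

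Galactose is added by B4galt enzymes. B4galt1, the most abundant galactosyltransferase, was at 230 ± 15.9 against 238 ± 34.6 CPM (adjusted p = 0.751). B4galt5, known both for O-linked chains and for lactosylceramide, fell 1.19-fold, to 77.4 to 85.6 from 92.0 to 106 CPM (log2 difference -0.25, adjusted p = 0.0264). Gcnt1, which makes the branch on which T cells carry sialyl Lewis X, was at 8.37, 2.49, 3.94 and 16.4 CPM against 5.84, 5.71, 3.18, 7.91 and 3.93 CPM. Its Ezh2-deficient range enclosed the WT range, with a log2 difference of 0.56 and an SE of 0.49 (adjusted p = 0.441). B4galt5 lost its call without Ezh2-deficient replicate 3 (log2 difference -0.26, adjusted p = 0.0584).

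B3gnt2, a main enzyme of polylactosamine extension, fell 2.08-fold at a low level, from 1.69 ± 0.308 to 0.809 ± 0.198 CPM (log2 difference -1.05, adjusted p = 0.0186). Its exons overlap Gm12057 and Gm28048 on the same strand, so its count is uncertain. B3gnt3, which extends core O-linked chains, missed the threshold, with means of 4.00 ± 0.828 and 6.06 ± 1.43 CPM (log2 difference -0.59, adjusted p = 0.0721). Without WT replicate 5 it was at -0.72 (adjusted p = 0.029). The sulfotransferase Chst2, which contributes to sulfated selectin ligands, was at 2.28 ± 0.572 against 3.54 ± 1.34 CPM (adjusted p = 0.16). Chst1 had 13 counts in all and was not tested, and Chst4 had none.

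**Figure D2:**
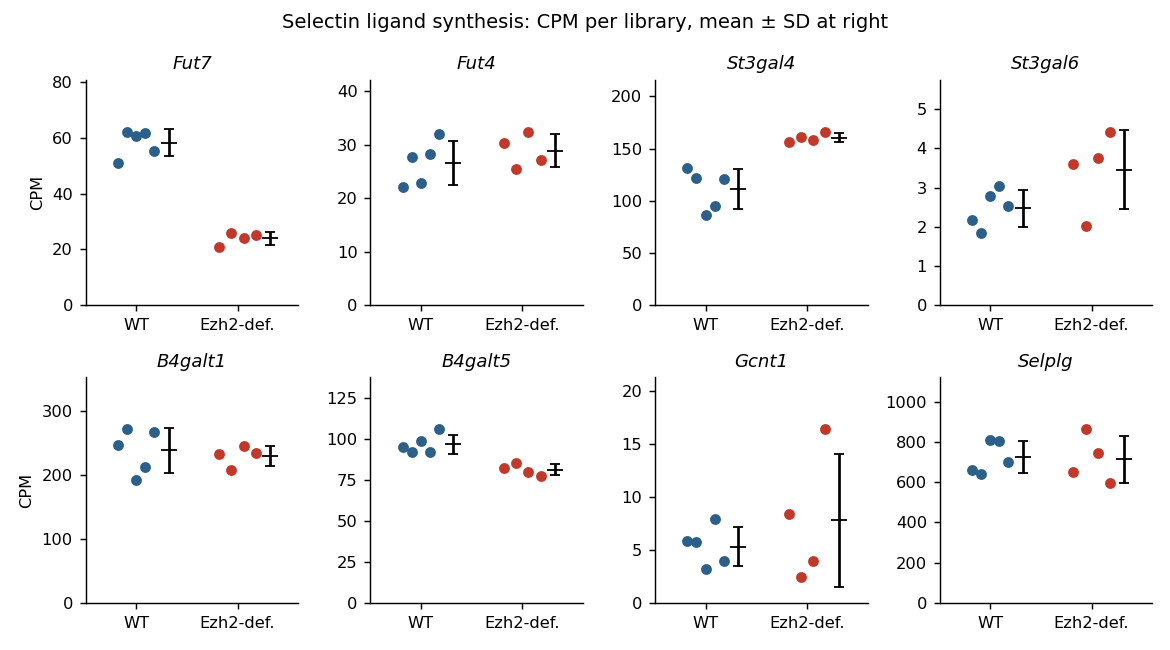
CPM (vertical axis, from 0) of 8 genes of selectin ligand synthesis in each WT library (blue, n = 5) and Ezh2-deficient library (red, n = 4), with the mean and SD in black. Fut7 separates the groups downward and St3gal4 upward, B4galt5 by less, and Fut4, St3gal6, B4galt1, Gcnt1 and Selplg overlap.

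Gcnt2 showed the largest change of all members tested. It encodes the enzyme that puts I branches on polylactosamine, a different branch from that of Gcnt1. Gcnt2 was at 16.3, 19.4, 13.6 and 26.9 CPM in Ezh2-deficient replicates 1 to 4 and at 3.35, 3.92, 2.55, 3.15 and 3.76 CPM in WT replicates 1 to 5. The WT libraries lay close together and all of them far below the Ezh2-deficient libraries, of which replicate 4 was the highest. The level rose 5.70-fold, from 3.35 ± 0.54 to 19.1 ± 5.75 CPM (log2 difference 2.51, SE 0.20, adjusted p = 1.99e-05). Gcnt2 (ENSMUSG00000021360; chromosome 13, 40859754 to 40960892) has several first exons that encode different enzyme forms, which these counts do not separate. Per length it was still low, at 2.71 RPKM. Gcnt4 was at 3.23 ± 1.62 against 2.76 ± 0.869 CPM (adjusted p = 0.663).

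Fut8 is the only enzyme known to fucosylate the core of N-linked chains, a modification of the T cell receptor and of many cytokine receptors. It was at 239, 244, 287 and 251 CPM in Ezh2-deficient libraries and at 108, 99.1, 59.5, 60.4 and 96.6 CPM in WT libraries. No library of either group came near the other group. Fut8 rose 3.01-fold (log2 difference 1.59, SE 0.18, adjusted p = 0.000191), from 10.7 to 32.3 RPKM. Fut8 and Fut7 differed in opposite directions: by RPKM Fut7 was above Fut8 in WT cells and below it in Ezh2-deficient cells. By mean CPM, which leaves out length, Fut8 was above Fut7 in both groups (84.7 and 58.3 in WT, 255 and 24.0 in Ezh2-deficient). Fut8 (ENSMUSG00000021065) lies on chromosome 12, 77238125 to 77476338. Of the 5 tested Fut genes 3 did not pass: Fut4, Fut10 (0.37, adjusted p = 0.63) and Fut11 (-0.35, adjusted p = 0.0833), the last 2 being enzymes that fucosylate proteins directly.

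Genes of N-glycan branching moved in both directions. Mgat1 adds the N-acetylglucosamine that opens the way to hybrid and complex chains, and Mgat4a and Mgat5 add later branches. Mgat1 was at 79.0, 81.4, 77.4 and 70.4 CPM in Ezh2-deficient libraries against 107, 102, 130, 119 and 111 CPM in WT libraries. It fell 1.47-fold without overlap of the groups (log2 difference -0.56, SE 0.09, adjusted p = 0.000989). Mgat4a was at 78.5, 65.6, 83.1 and 65.2 CPM against 36.0, 42.7, 31.0, 40.0 and 47.7 CPM. Its lowest Ezh2-deficient library was above its highest WT library, and it rose 1.85-fold (log2 difference 0.89, SE 0.12, adjusted p = 0.000581). Mgat5, long studied in T cells because its branches bind galectins, was at 148, 147, 146 and 148 CPM against 104, 116, 108, 101 and 100 CPM. Its Ezh2-deficient libraries were nearly equal, and the rise was 1.39-fold (log2 difference 0.48, SE 0.07, adjusted p = 0.000583). Mgat2, which acts between them, was at 69.3 ± 6.24 against 72.5 ± 6.57 CPM (adjusted p = 0.628), and Mgat4b, which adds the same branch as Mgat4a, was at 13.2 ± 1.73 against 16.9 ± 3.16 CPM (adjusted p = 0.113).

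Of the St8sia genes, which add sialic acid to sialic acid, 2 of 3 rose, where 13.1% of all tested genes did. St8sia6, which caps O-linked chains with disialic acid, a structure known as a ligand of Siglec receptors, was at 48.6, 51.9, 56.3 and 45.7 CPM against 15, 16.6, 26.7, 15.1 and 26.1 CPM. The groups were well apart, and among WT libraries replicates 3 and 5 were the higher. It rose 2.54-fold (log2 difference 1.35, SE 0.19, adjusted p = 0.0006). St8sia1, the ganglioside enzyme, rose 1.33-fold, to 32.7 ± 4.28 from 24.6 ± 3.47 CPM with overlapping ranges (log2 difference 0.41, adjusted p = 0.0329). St8sia4, a polysialyltransferase, was at 263 ± 24.7 against 230 ± 20.9 CPM (log2 difference 0.20, adjusted p = 0.126). St8sia1 missed the threshold when Ezh2-deficient replicate 1, 3 or 4 was left out, or WT replicate 2, 3 or 5 (log2 difference 0.33 to 0.40, adjusted p = 0.0688 to 0.124).

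Of the St6gal genes 2 of the 4 tested passed and both fell, where 8.8% of all tested genes fell. St6gal1, described further on, and St6galnac3 (log2 difference -0.10, adjusted p = 0.779) did not pass. St6galnac6 was at 10.2 ± 1.96 against 16.3 ± 2.92 CPM (log2 difference -0.68, adjusted p = 0.0139) and St6galnac4 at 22.6 ± 1.10 against 30.2 ± 5.68 CPM (log2 difference -0.42, adjusted p = 0.039). The 2 genes are neighbours on chromosome 2, at 32599709 to 32620806 and 32587095 to 32599698, and both encode enzymes that add a second sialic acid to sialylated O-linked chains or glycolipids. St6galnac4 lost its call without any of the 4 Ezh2-deficient libraries and without WT replicate 3 or 4 (log2 difference -0.47 to -0.33, adjusted p = 0.054 to 0.082). Among the St3gal genes, St3gal2 rose beside St3gal4. It was at 154, 187, 164 and 120 CPM against 108 to 127 CPM in WT libraries, with Ezh2-deficient replicate 4 inside the WT range (log2 difference 0.41, adjusted p = 0.0215). This call was lost when Ezh2-deficient replicate 1, 2 or 3 was left out, or WT replicate 3 (0.29 to 0.39, adjusted p = 0.0582 to 0.0778), and within the 5 libraries of high hypoxia score the change was 0.15 (adjusted p = 0.398). The ganglioside enzyme St3gal5 did not pass (-0.16, adjusted p = 0.494).

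**Figure D3:**
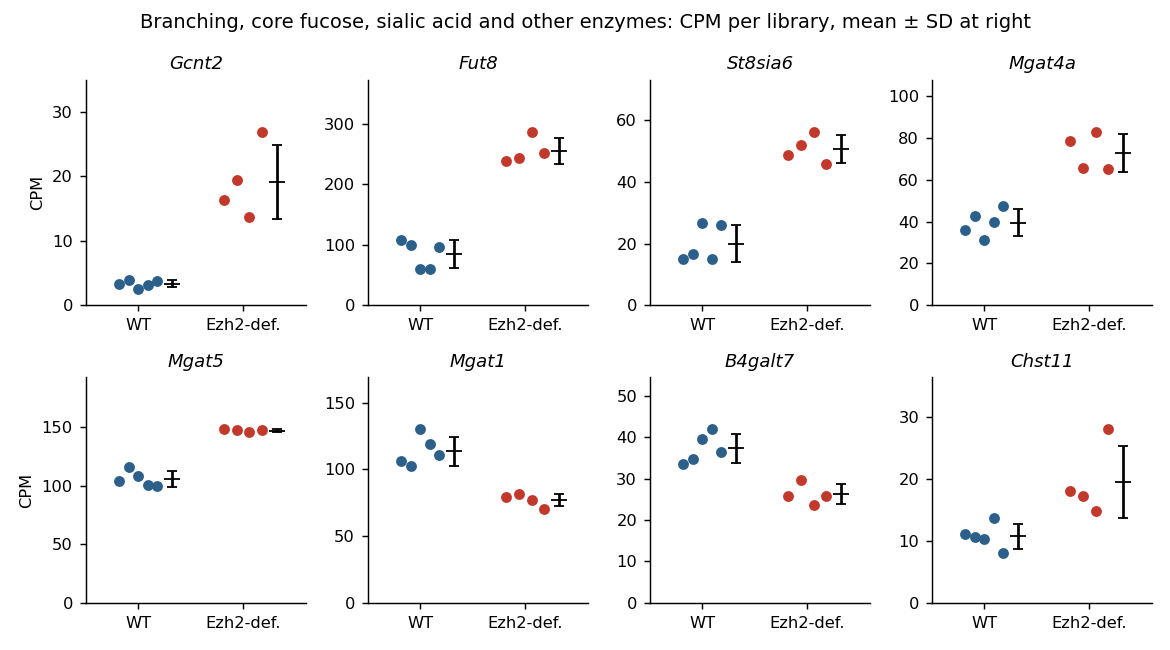
CPM (vertical axis, from 0) of 8 members of the branching, core fucose, sialic acid, linker and sulfate steps in each WT library (blue, n = 5) and Ezh2-deficient library (red, n = 4), with the mean and SD in black. In each panel the groups are separate; Gcnt2, Fut8, St8sia6, Mgat4a, Mgat5 and Chst11 are higher and Mgat1 and B4galt7 lower in Ezh2-deficient libraries.

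Galnt genes encode the enzymes that start O-linked chains by adding N-acetylgalactosamine, and the 3 of 9 that passed all rose. Over all tested genes, 13.1% rose. Galnt10 was at 103, 135, 130 and 76.4 CPM against 76.1, 47.1, 76.8, 60.9 and 58.7 CPM. Ezh2-deficient replicate 4 was level with the 2 highest WT libraries, and the other 3 were above them (log2 difference 0.80, SE 0.18, adjusted p = 0.00973). Within the libraries of high hypoxia score its change was 0.54 (adjusted p = 0.101). Galnt7, which like Galnt10 prefers proteins that already carry such a sugar, rose to 92.5 ± 10.6 from 67.4 ± 10.7 CPM (0.46, adjusted p = 0.0198). Galnt4 rose to 36.5 ± 1.79 from 27.2 ± 3.16 CPM without overlap (0.42, adjusted p = 0.0108). Its exons are shared with Poc1b on the same strand, which did not pass, at a log2 difference under 0.01 in size, so the Galnt4 count is uncertain. Without Ezh2-deficient replicate 3, Galnt4 (0.37, adjusted p = 0.0513) and Galnt7 (0.37, adjusted p = 0.0803) lost their calls, and Galnt7 also without Ezh2-deficient replicate 1 (0.44, adjusted p = 0.0568). The most abundant Galnt gene per length, Galnt6 at 69.6 and 70.1 RPKM, and the next, Galnt1 at 35.1 and 30.4 RPKM, did not pass (adjusted p = 0.985 and 0.134). Galnt11, with separate ranges of 27.4 to 28.4 and 18.4 to 26.2 CPM, also missed the threshold (0.29, adjusted p = 0.0587), as did Galnt3, Galnt9 and Galnt12 (0.09, -0.96 and -0.18).

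Enzymes of glycosaminoglycans, the long sulfated chains of proteoglycans, moved in both directions. B4galt7 adds the first galactose of the linker on which many such chains are built. It was at 25.8, 29.6, 23.8 and 25.8 CPM against 33.6, 34.9, 39.6, 41.9 and 36.5 CPM. The groups were apart, and it fell 1.42-fold (log2 difference -0.51, SE 0.10, adjusted p = 0.00395). Chst11, which sulfates chondroitin, was at 18.1, 17.2, 14.8 and 27.9 CPM against 11.1, 10.6, 10.2, 13.6 and 7.97 CPM. All Ezh2-deficient libraries were above all WT libraries, with replicate 4 the highest (1.82-fold, log2 difference 0.87, adjusted p = 0.00825). Chst15, which adds a further sulfate to the same chain, rose from 4.31 ± 0.981 to 7.96 ± 1.06 CPM (0.89, adjusted p = 0.00697). The other chondroitin and dermatan enzymes, Chst12, Chst14 and Chst3, did not pass (-0.29, -0.34 and -1.59; adjusted p = 0.218, 0.15 and 0.206), and neither did Chst10 (0.01, adjusted p = 0.978). Chst12 was at -0.46 without Ezh2-deficient replicate 2 (adjusted p = 0.044). Chst3 was near its floor, with no count in Ezh2-deficient replicates 2 and 3.

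Among the other B4galt and B3gnt genes, B4galt4 rose to 15.9 ± 1.75 from 10.2 ± 2.29 CPM (log2 difference 0.63, adjusted p = 0.0145). B4galt3 fell to 20.9 ± 2.37 from 26.7 ± 3.20 CPM (-0.36, adjusted p = 0.0433). Both are lactosamine galactosyltransferases. B4galt3 overlaps Ppox on the opposite strand, and 11 of the 22 members that passed have such an antisense overlap, for which the strand setting of the counting matters and is not known here. B4galt4 lost its call without Ezh2-deficient replicate 3 (0.54, adjusted p = 0.0575), and B4galt3 when Ezh2-deficient replicate 2 or 3 was left out, or WT replicate 2, 3 or 4 (-0.39 to -0.29, adjusted p = 0.0502 to 0.0928). B4galt2, B3gnt5, B3gnt7, B3gnt8, B3gnt9 and B3gntl1 did not pass, with log2 differences of -0.34, -0.21, -0.07, -1.01, -0.45 and 0.03. Of these B3gnt8 had separate ranges, 0.211 to 0.343 against 0.401 to 0.847 CPM (adjusted p = 0.0806).

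Several members differed more among libraries of 1 group than between the groups, including the abundant St6gal1, Galnt6 and St3gal1 and the low Gcnt1. St6gal1, which adds the outer sialic acid of N-linked chains and is the most abundant enzyme gene here per length (85.0 and 75.5 RPKM), was at 540, 263, 308 and 560 CPM against 472, 466, 179, 488 and 252 CPM. The group difference was small beside this spread (log2 difference 0.17, SE 0.36, adjusted p = 0.771). It was at 466 to 560 CPM in the 5 libraries of high hypoxia score and at 179 to 308 CPM in the other 4. Galnt6 was at 299 to 361 against 182 to 207 CPM in the same libraries, St3gal1 at 82.9 to 105 against 49.9 to 75.0, and Gcnt1 at 5.71 to 16.4 against 2.49 to 3.94. These sets of libraries were formed from the data and were not compared by a test, and Cd8a was also high in the 5. With the score as a covariate St3gal1, which caps core O-linked chains, passed as lower in Ezh2-deficient cells (log2 difference -0.32, adjusted p = 0.0191), where the fit without it gave -0.29 (adjusted p = 0.351).

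**Figure D4:**
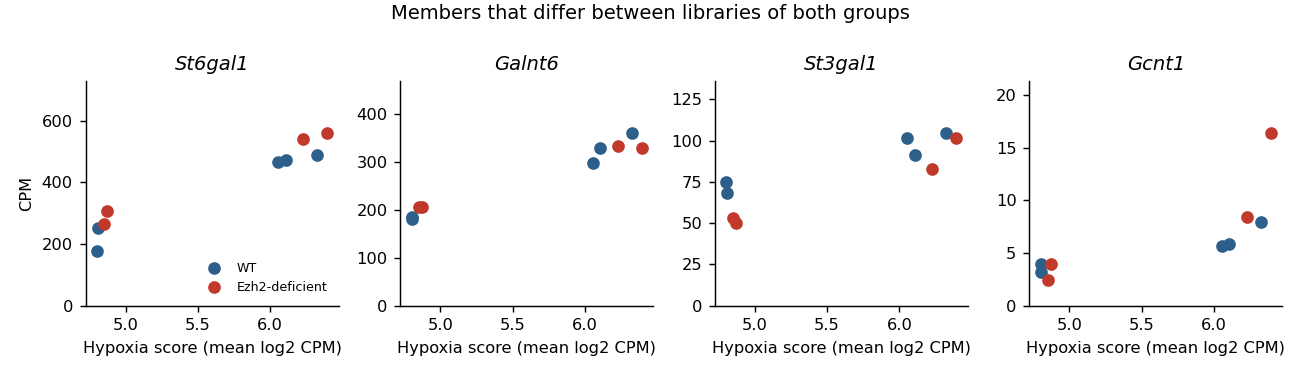
CPM (vertical axes, from 0) of St6gal1, Galnt6, St3gal1 and Gcnt1 against the hypoxia score (mean log2 CPM of 23 genes) in WT (blue) and Ezh2-deficient (red) libraries, 1 point each. The libraries form 2 clusters by score, each with both groups, and all 4 genes, chosen after their values were seen, are higher in the 5 libraries with a score above 6.

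Of the 12 members too low for the test, St6galnac5 had the highest ratio of counts. Ezh2-deficient libraries held 93 counts of it and WT libraries 6, which scaled to library size is a ratio of 19.4 (exact 95% interval 8.58 to 54.2, for counting error only). Every Ezh2-deficient library, at 0.244 to 0.776 CPM, was above every WT library, at 0 to 0.0935 CPM. St6galnac5 was chosen after its values were seen, and its exons overlap Pigk on the other strand. B4galt6 had 27 against 6 counts and Mgat3, the bisecting enzyme, 68 against 32. B3gnt4 had 16 against 81 and Fut2 13 against 36. The other 7 (B3gnt6, Chst1, Galnt14, Galnt16, Gcnt3, Mgat4e and St6galnac2) had 10 to 82 counts over all libraries.

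The donors of these reactions are nucleotide sugars and active sulfate, made and carried by genes that are no members. Of 20 such genes tested, 2 rose and 6 fell, so that 40% passed, where 21.9% of all tested genes did. Papss2, which makes the sulfate donor, rose to 2.78 ± 0.495 from 1.18 ± 0.363 CPM (1.23, adjusted p = 0.0077). Papss1, a far more abundant gene of the same list, was at 46.8 ± 6.05 against 48.2 ± 7.24 CPM. It did not pass (-0.04, adjusted p = 0.844) and was named after its values were seen. The other rise was Slc35a1, the carrier of activated sialic acid. The falls included Tsta3 and Fuk of GDP-fucose supply and Gnpnat1, Pgm3 and Uap1, consecutive enzymes towards UDP-N-acetylglucosamine. Gmds, Fpgt and Slc35c1 of the first route did not pass (log2 difference 0.12, -0.07 and -0.20, adjusted p = 0.518, 0.774 and 0.0701). Neither did Gfpt1 of the second (0.10, adjusted p = 0.417). Slc35a1 and the genes given after it were named after their values were seen.

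Of 21 further core, trimming and removal enzymes, 4 rose and 2 fell, so that 28.6% passed, where 21.9% of all tested genes did. B3galnt1, which extends globoside chains, rose 2.92-fold (log2 difference 1.55, adjusted p = 0.000248), and the mannosidase Man1c1 rose 1.95-fold (0.97, adjusted p = 0.00262). The tyrosine sulfotransferases Tpst1 and Tpst2, which complete the P-selectin site of PSGL-1, did not pass (-0.18 and -0.06; adjusted p = 0.304 and 0.692). Among 7 tested carriers of such sugars, 4 rose and 2 fell, against the same 21.9% of all tested genes. Cd44, a carrier of E-selectin ligands, rose to 191 ± 26.3 from 134 ± 8.65 CPM (0.51, adjusted p = 0.00287).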

How the data were processed

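The authors deposited raw gene counts, without normalization, for 9 libraries made with a stranded mRNA kit per the labels. STAR and GRCm38 were used per the submitters' processing notes. How reads were counted (tool, strand, annotation) is not given in the sources used here. Symbols, positions and exon lengths came from GENCODE M21 (GRCm38), which held 42548 of 43432 identifiers, and start windows from RefSeq (GRCm38.p6).

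Among 22839 genes that had counts, edgeR's default filter kept 13685, which were scaled with TMM and tested across all genes with a two-sided quasi-likelihood F-test, robust setting, without covariates (edgeR 4.0.16, R 4.3.3; biological coefficient of variation 0.206). All adjusted p values are Benjamini-Hochberg values of this test. Log2 differences are fold changes of Ezh2-deficient over WT on the log2 scale, with SE derived from the F statistic. RPKM is CPM per kilobase of the union of annotated exons. The procedure was tested on simulated counts. The design text calls the libraries biological replicates, and libraries of a group differed beyond sampling noise (lowest chi-square per degree of freedom 21.9). The labels name no molecular identifiers.

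The members and lists were chosen with earlier results of these data known. Named genes were the members past the threshold, the listed selectin ligand genes, the member of each family highest in RPKM and the 2 smallest adjusted p values past the threshold in each list of other genes. Some genes that this rule names are not reported here. Other members were given for completeness. Alternatives were relative log expression and upper-quartile scaling, no filter, 1 CPM in 4 libraries, DESeq2 1.42.0, limma-voom (limma 3.58.1), a replicate block, each library left out, omission of each group's library highest in Cd8a, a hypoxia score as covariate, and fits within high and within low scores.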

Additional observations from a re-analysis of the deposited data

Results flagged for a closer look

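Each of 86 combinations of a named gene and a group was checked for a library far from the rest of its group, by the gap to its nearest neighbour over the whole range, and 3 stood out; chance gives about 1 in 20. B3gnt3 was at 2.77 CPM in Ezh2-deficient replicate 3, where the other 3 were at 4.26 to 4.50 CPM. Chst12 was at 36.1 CPM in Ezh2-deficient replicate 2, where the other 3 were at 24.0 to 25.8 CPM. Cd44 was at 119 CPM in WT replicate 3, where the other 4 were at 136 to 139 CPM.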

How the results depend on the processing

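Fut7, Gcnt2, Fut8 and St8sia6 kept their direction and their call in all 20 alternatives, and the other 18 members that passed kept their direction in all of them but lost the call in at least 1. Of the 15 named members that did not pass, B3gnt3, St3gal1 and Chst12 passed in at least 1 alternative. No named member that passed in the main fit or in an alternative had opposite signs in these fits. Members outside the named set were not checked for this. The numbers of members higher and lower (14 and 8) were 9 to 15 and 5 to 9 with 1 library left out, and the genes called over the whole table (3001) were 1972 to 3168. Within the 5 libraries of high hypoxia score they were 9 and 4 (1764 genes), and within the 4 of low score, 2 against 2, they were 5 and 2 (570 genes); these fits have fewer libraries. Without the library of highest Cd8a in each group 4 members were lower. With the replicate number as a block the numbers were 13 and 6 (2751 genes), and 17 of the 22 calls were kept; B3gnt2, B4galt3, B4galt5, St6galnac4 and St8sia1 lost theirs. The labels do not say what a replicate number stands for, same-numbered libraries had correlated deviations of 0.153, -0.0834, 0.114 and 0.187 for numbers 1 to 4, and no Ezh2-deficient library correlated best with its own number. Members under about 1 CPM, such as B3gnt8 and B4galt2, are limited by their counts.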

Other observations

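Podxl, which encodes podocalyxin, a sialomucin that can carry selectin ligands in vessels, was named here after its values were seen. It was at 63.6 to 104 CPM in the Ezh2-deficient and 4.95 to 24.9 CPM in the WT libraries, without overlap. The level rose 7.87-fold, from 11 ± 8.14 to 87.5 ± 19.7 CPM (log2 difference 2.98, SE 0.49, adjusted p = 0.00437). Spn, which encodes the T cell sialomucin CD43 and was also named after its values were seen, was lower, at 716 ± 59.8 and 907 ± 83.0 CPM (log2 difference -0.34, adjusted p = 0.0193). Both lie outside the rule for named genes.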
